A study of Mus musculus with 3 samples.

Results

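Histone transcripts were examined in RNA from mouse primary T cells. The 85 genes were taken by symbol from the 50600 genes counted: every gene named for a histone cluster (Hist1 to Hist4) or for a replacement variant of H1, H2A or H3, with 4 pseudogenes named as such left out. Of these, 67 were clustered genes (6 of class H1, 20 of H2A, 16 of H2B, 12 of H3 and 13 of H4) and 18 were replacement genes (4 of H1, 10 of H2A, 3 of H3 and the antisense RNA gene H3f3aos). Another 2 matching genes, Hist1h2bh and Hist1h2bm, were not analysed here. The annotation called 80 of the 85 protein-coding and 4 pseudogenes (H3f3c, H2afy3, Hist1h2aj and Hist1h2al).

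All 3 libraries came from T cells of strain C57BL/6NJ and formed a single group, numbered 2, 3 and 4 as biological replicates. No treatment or time is labelled, sex was not collected and age is unknown. The labels name a CD4+ T cell differentiation protocol, while the alignments named in the file headers carry Th0, activated and 00h. The labels give every library its own biosample but the same donor identifier, so the p-values below measure only how these libraries scatter, and that scatter may be technical. The libraries held 47432940 (replicate 2), 59698913 (replicate 3) and 28340521 (replicate 4) counts. The 6 T cell markers summed to between 9519 and 9735 TPM (counts divided by exon length and scaled to the same total in each library). The 5 B cell markers all passed 1 TPM in every library, with sums of 43.6, 48.6 and 34.1 TPM in replicates 2, 3 and 4. Both CD4 lineage genes passed, with Cd4 at 1044 ± 24.6 TPM, and of the CD8 lineage genes Cd8b1 did, at 33.6 ± 3.00 TPM, while Cd8a was at 0.534 ± 0.182 TPM. Of the markers of other cells, 1 of 4 myeloid, 1 of 3 NK and 1 of 3 platelet genes passed. None of 3 erythroid or 5 male germ cell markers did, and Prm2 and Tnp1 of the latter had 0 counts. How far other cells contributed to histone levels was not tested, and in bulk RNA fewer cells of a type and less RNA per cell cannot be told apart.

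Histones are the proteins around which DNA is wound. Clustered, or replication-dependent, genes supply the bulk of them while DNA is copied in S phase. Their genes mostly lack introns, and their mRNAs typically end just after a short stem-loop, bound by the protein SLBP, in place of a poly(A) tail. Replacement genes encode variants that are loaded outside replication, and their mRNAs are mostly spliced and carry a tail, so resting cells can make them. Of the 18 replacement genes taken here, however, 10 had 1 exon, among them H2afj, H2afx and H1f0.

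The 2 kinds of 3′ end are shown here because the counted exons differed in which they held. The histone stem-loop is a perfect stem of 6 base pairs around a loop of 4 bases. It was found in the counted exons of 42 of the 67 clustered genes and of 1 replacement gene, H2afx. Some counted exons were no longer than a coding sequence, such as Hist1h3i at 411 bases, the coding length of Hist1h3a. The 25 clustered genes where none was found therefore need not lack a stem-loop. The most frequent form of its 16 bases, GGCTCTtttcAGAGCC, stood in 24 genes. The arms of the stem are in capitals below, with 5 bases on each side, read from GENCODE M21 transcripts on GRCm38 (mm10), for 4 genes that the results turn on.
Hist3h2ba (chr11:58949344-58949369, plus strand): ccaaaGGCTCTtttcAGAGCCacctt
Hist1h1c (chr13:23739507-23739532, plus strand): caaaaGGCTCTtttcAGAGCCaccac
Hist1h4i (chr13:22040961-22040986, minus strand): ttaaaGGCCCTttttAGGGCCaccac
H2afx (chr9:44335235-44335260, plus strand): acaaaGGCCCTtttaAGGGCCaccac

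Some clustered genes were also annotated with an end that holds a poly(A) signal, AATAAA or ATTAAA. A gene was counted as holding one when it began 40 to 10 bases before the counted end and that end was an annotated transcript end. This applied to 11 of the 67 clustered genes. For 49 of the 67 the counted end was an annotated transcript end. The rest were not examined and stand with the genes without a signal. Of the 18 replacement genes 7 met the rule, and H3f3b, H2afy and H1f0 did not. It thus does not tell which RNAs carry a tail. Below, genes without the signal are those where this rule found none. The signal, in capitals, and up to 20 bases after it are given for 5 of the 11 genes and for the replacement gene H2afx, with 4 bases before it.
Hist2h2be (chr3:96223713-96223738, plus strand): tattAATAAAgttaccgattagtttc
Hist1h1c (chr13:23740338-23740367, plus strand): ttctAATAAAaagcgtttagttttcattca
Hist3h2ba (chr11:58949503-58949532, plus strand): tattAATAAAtttggttcaattttggccac
Hist3h2a (chr11:58956793-58956822, plus strand): gcccAATAAAataagagtacgtgtataaca
Hist1h4i (chr13:22040636-22040660, minus strand): ttacATTAAAagtattctatgctaa
H2afx (chr9:44336039-44336068, plus strand): ttttATTAAAggatcgtttggttttgtttt

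Replacement genes gave most of the histone counts and summed TPM in these libraries. Of the 85 genes, 32 passed 1 TPM in all 3 libraries and are called detected, 24 of 67 clustered (35.8%) and 8 of 18 replacement genes (44.4%). The same held for 23.4% of all genes counted and for 46.1% of protein-coding genes. The 8 replacement genes reached from 14.5 to 353 TPM on average, whereas no clustered gene averaged above 22.6 TPM. At the other end, 20 histone genes had 0 counts in all 3 libraries, 13 of them clustered and 7 replacement, and 32 had 3 counts or fewer. The plot of levels by gene shows 7 replacement genes above every clustered gene in each library.

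**Figure D1:**
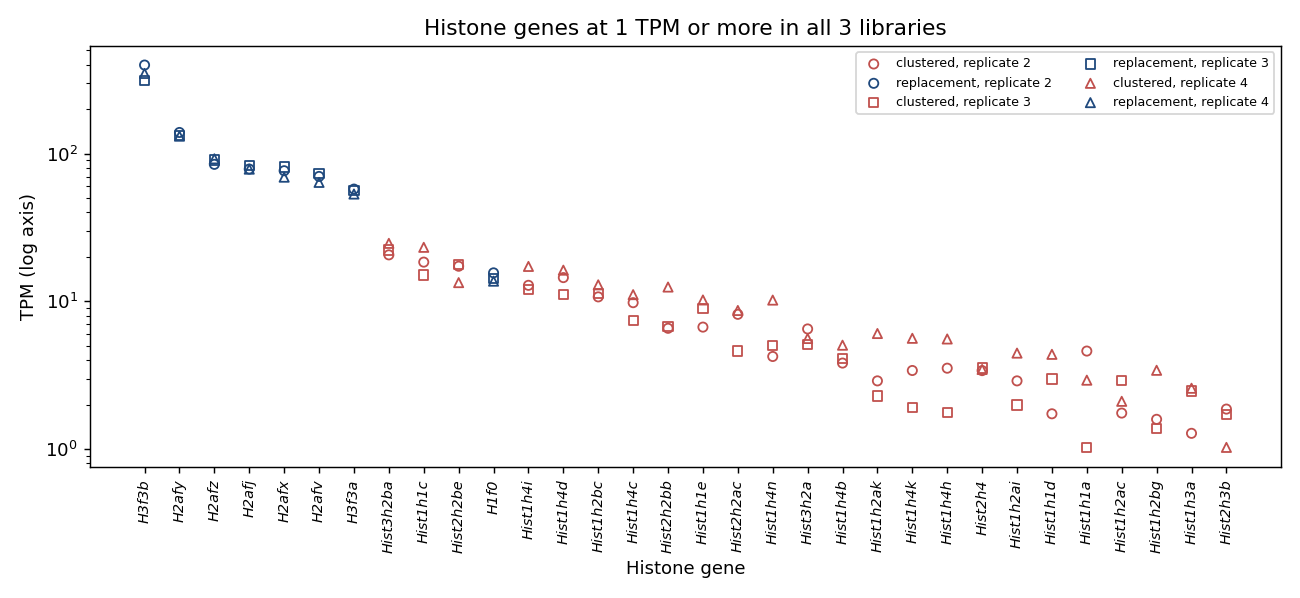
TPM on a log axis of the 32 detected histone genes, 1 symbol per library, ordered by mean (blue replacement, red clustered). The 7 highest genes are replacement genes, and H1f0, at 14.5 TPM, lies among the clustered genes.

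The genes of H3.3, the replacement form of H3, held the highest level of any histone gene. H3f3b (ENSMUSG00000016559.14, chr11:116021912-116027962, minus strand, 4 exons) was at 398, 313 and 349 TPM in replicates 2, 3 and 4, from 39377 counts. H3f3a on chromosome 1, which encodes the same protein, was at 57.6, 56.5 and 53.3 TPM, from 7443 counts. The lowest library of H3f3b thus lay far above the highest of H3f3a. The mean difference, H3f3b minus H3f3a, was 2.65 ± 0.17 in log2(TPM + 0.1) units (SD, n = 3), and H3f3b was higher in 3 of 3 libraries. Pooled counts per base gave a ratio of 6.23 (exact 95% interval 6.08 to 6.39, counting error only). In this and in the other contrasts between genes, the exact two-sided sign-flip permutation test gave p = 0.25 and an adjusted p of 0.25 over 8 contrasts. With 3 libraries this is the smallest p it allows, so none could pass 0.05.

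H3f3a and H3f3b can be told apart by their coding bases, since they share a protein but not a sequence. Of 411 aligned coding bases 316 were identical (76.9%) and 95 differed, and the longest identical run was 23 bases. Their first 90 coding bases are given with the differing bases in capitals (GENCODE M21, GRCm38).
H3f3b (transcript H3f3b-202): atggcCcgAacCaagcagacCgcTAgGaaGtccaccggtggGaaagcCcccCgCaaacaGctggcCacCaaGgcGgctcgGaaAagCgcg
H3f3a (transcript H3f3a-205): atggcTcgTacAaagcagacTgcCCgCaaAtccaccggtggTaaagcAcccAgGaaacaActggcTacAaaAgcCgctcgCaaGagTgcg
Of all 50-base words in their annotated transcripts, 6.86% for H3f3b and 12.3% for H3f3a also occurred in transcripts of another gene. The pseudogene H3f3c, with 73.8% of its words shared, had 13 counts. H3f3aos, an RNA gene on the opposite strand that overlaps H3f3a, was at 1.77, 0.987 and 1.73 TPM, and the counting kept strands apart.

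The 5 abundant replacement genes of class H2A lay between 69.2 and 134 TPM. H2afy encodes macroH2A1, a variant with a large globular domain often found in silent chromatin, and was at 139, 133 and 131 TPM. Its paralog H2afy2, which encodes macroH2A2, had 1 count in all. H2afy exceeded it by 10.17 ± 0.41 on the log2(TPM + 0.1) scale, in 3 of 3 libraries (exact permutation p = 0.25). The size of this difference depends on the pseudocount: it was 7.05 with 1 TPM and 12.8 with 0.01 TPM. The pooled ratio per length was 11074, and because it rests on 1 count its exact interval ran from 1987 to 437412.

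H2A.Z, a variant found at promoters and enhancers, is encoded by both H2afz and H2afv. H2afz (chromosome 3) was at 84.7, 90.5 and 92.3 TPM and H2afv (chromosome 11) at 70.1, 73.5 and 63.9 TPM. Every library of H2afz was above every library of H2afv and below every library of H3f3b, which exceeded H2afz by 1.98 ± 0.23 (log2) at a pooled ratio per length of 3.94. The difference was 0.37 ± 0.14 on the log2(TPM + 0.1) scale (3 of 3 libraries, exact permutation p = 0.25), and the pooled ratio per length was 1.26, with an interval from 1.22 to 1.31. The coding sequences matched in 306 of 387 bases (79.1%), with no identical run above 14 bases. Their first 90 coding bases, again with the differing bases in capitals, read as follows.
H2afz (transcript H2afz-201): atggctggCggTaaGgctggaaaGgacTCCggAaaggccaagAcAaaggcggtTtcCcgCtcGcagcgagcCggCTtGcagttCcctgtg
H2afv (transcript H2afv-202): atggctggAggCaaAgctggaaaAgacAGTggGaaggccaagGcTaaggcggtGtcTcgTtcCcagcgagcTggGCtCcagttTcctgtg

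H2afx encodes H2A.X, which is phosphorylated around DNA breaks, and was at 76.7, 81.3 and 69.3 TPM. H2afj, the gene of the variant H2A.J, was at 78.7, 83.4 and 78.6 TPM. These ranges overlap, although H2afj was the higher in each library, by 0.08 ± 0.08 on the log2(TPM + 0.1) scale. The pooled ratio per length was 1.05, with an interval from 1.00 to 1.09. H2afz exceeded H2afx by 0.24 ± 0.15 (ratio 1.15, interval 1.11 to 1.20). Without replicate 4 these differences were 0.04 for H2afj and 0.15 for H2afz. H2afx and H2afv also had overlapping ranges, though H2afx was the higher in each library, and H2afj lay above H2afv without overlap. H2afx was the only replacement gene with a histone stem-loop, and 822 counted bases lay after it, ending with the poly(A) signal shown above.

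Linker histones, which bind DNA between nucleosomes, came from both kinds of gene. H1f0 encodes H1.0, a linker histone known to accumulate in cells that have left the cycle, and was at 15.6, 14.2 and 13.7 TPM. Among clustered linker genes Hist1h1c was at 18.5, 15.1 and 23.2 TPM and Hist1h1e at 6.70, 8.91 and 10.2 TPM. Hist1h1d was lower, at 1.74, 2.99 and 4.38 TPM, and Hist1h1b had 7 counts. H1f0 and Hist1h1c overlapped in range, from 13.7 to 15.6 TPM against 15.1 to 23.2 TPM, though Hist1h1c was the higher in each library.

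H1fx, the gene of a further replacement linker histone, had 0 counts, which allows up to 0.0652 TPM when 3 pooled counts are taken as the floor. H1f0 was at least 224-fold higher per length, and Hist1h1c at least 276-fold higher. Both stood above H1fx in 3 of 3 libraries (exact permutation p = 0.25). The oocyte and testis linker genes H1foo and H1fnt and the testis gene Hist1h1t had 0 counts, as did the germ cell H2A variants H2afb1, H2afb2 and H2afb3 and the testis genes Hist1h2aa and Hist1h2ba.

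Clustered genes supplied a small share of histone counts. They held 5.67% of the counts of the 85 genes in replicate 2 (exact 95% interval 5.45 to 5.90), 5.82% in replicate 3 (5.60 to 6.03) and 6.92% in replicate 4 (6.60 to 7.26). The interval of replicate 4 lies above those of replicates 2 and 3, and the mean was 6.14 ± 0.685% (SD, n = 3). By summed TPM, which corrects for the short clustered genes, the mean share was 18.3%, and without clustered genes of 1000 bases or more it was 2.88% of counts. The part of library preparation and of sequence shared between gene copies in these shares, both described below, was not tested.

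The share differed by class. In class H1, clustered genes held 51.6%, 50.6% and 61.1% of counts in replicates 2, 3 and 4. In class H2A they held 1.59%, 1.21% and 1.70%, and in class H3 0.333%, 0.476% and 0.478%. Per length, clustered H1 genes summed to 31.5, 28.4 and 41.1 TPM, above replacement H1 genes at 15.6, 14.2 and 13.7 TPM in every library. Replacement H3 genes summed to 456, 370 and 403 TPM and clustered H3 genes to 8.05 ± 1.16 TPM. Replacement H2A genes summed to 449 ± 13.0 TPM and clustered H2A genes to 26.4 ± 6.39 TPM. For H2B and H4 every gene counted here was clustered, at 67.1 ± 8.30 TPM and 61.2 ± 15.8 TPM.

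**Figure D2:**
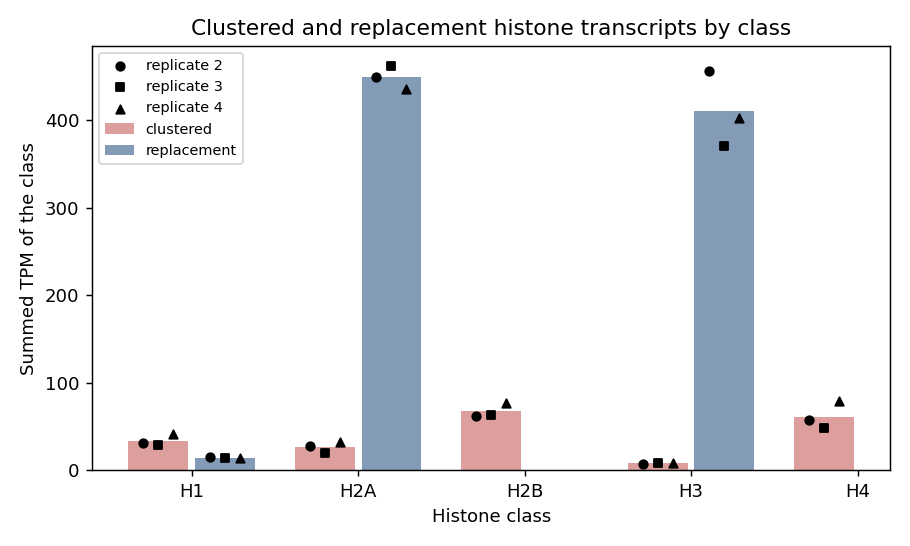
Summed TPM of clustered (red) and replacement (blue) histone genes by class, as bars for the mean of 3 libraries with 1 symbol per library. Replacement genes make up most of classes H2A and H3, and classes H2B and H4 have clustered genes only.

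Clustered transcripts were spread unevenly over the 67 genes. Hist2h2be alone held 25.2% of clustered counts, the top 3 genes held 49.2% and the top 10 held 78.8%. Hist2h2be, an H2B gene of 2620 counted bases (chr3:96221119-96223738, plus strand, 1 exon), was at 17.3, 17.7 and 13.4 TPM from 1650 counts. The neighbouring genes of the Hist3 cluster on chromosome 11 were both detected: Hist3h2ba, of class H2B, at 20.7, 22.3 and 24.7 TPM and Hist3h2a, of class H2A, at 6.51, 5.12 and 5.61 TPM. For Hist3h2a, 708 of 2146 exon bases overlap another gene on the same strand. Hist3h2ba was above Hist2h2be in every library, without overlap, while the range of Hist1h1c overlapped both.

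Of the clustered genes, 4 of 6 in class H1 and 8 of 13 in class H4 were detected. Hist1h4i was at 12.9, 12.0 and 17.3 TPM, Hist1h4d at 14.5, 11.2 and 16.3 TPM and Hist1h4c at 9.81, 7.45 and 11.1 TPM. In class H2B 5 of 16 were detected, among them Hist1h2bc at 10.7, 11.3 and 13.0 TPM and Hist2h2bb at 6.58, 6.78 and 12.5 TPM, and 226 of the 381 bases of Hist2h2bb overlap another gene. In class H2A it was 5 of 20, with Hist2h2ac highest at 8.18, 4.62 and 8.68 TPM, and in class H3 2 of 12, Hist1h3a at 2.11 ± 0.723 TPM and Hist2h3b at 1.54 ± 0.449 TPM.

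Counts were concentrated in the clustered genes whose counted end holds a poly(A) signal. These 11 genes, 16.4% of the 67, held 65.5% of clustered counts, and the 5 clustered genes of highest count all carried it. Of the 11, 6 were detected, with a median of 3.47 TPM, against 18 of the other 56, with a median of 0.637 TPM. Among genes with a stem-loop, a median of 612.5 counted bases lay after it where the signal was present and 29.5 where it was absent. The split was made after the values were seen and has no test. Per length the 11 genes with the signal summed to 80.1, 76.2 and 89.3 TPM in replicates 2, 3 and 4. The 56 without it summed to 104, 91.3 and 148 TPM. By summed TPM the 11 genes thus held the smaller part, though still more than their 16.4% of the genes. The concentration was weaker by summed TPM than by counts. By its labels the assay was total RNA-seq, yet the protocol they name is for poly(A) libraries, and the part of library preparation in these levels was not tested.

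Sequence shared between copies moved with the levels too. In 34 clustered genes over 50% of the 50-base words of their transcripts also occurred in another gene, and 7 of these were detected, with a median of 0.192 TPM. In the other 33 genes 17 were detected, with a median of 2.13 TPM. The words came from all annotated transcripts of a gene, which for some genes reach beyond the counted exons. Hist1h1e, for example, had 1881 words for 748 counted bases. How much of the counted part alone is shared was not examined, so the split may place such genes wrongly. Of the 13 clustered genes at 0 counts, 9 had over 50% of words shared. Among them Hist2h3c1 lies wholly, and Hist2h2aa1 for 529 of 586 bases, inside another gene on the same strand. The headers set no option to count pairs that align to several places or overlap several genes, so the levels of such copies are uncertain and low counts there do not show low expression. All 6 detected genes with a poly(A) signal had under 50% of words shared, as the plot of counts against shared words shows, so the parts of signal and sharing were not told apart.

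**Figure D3:**
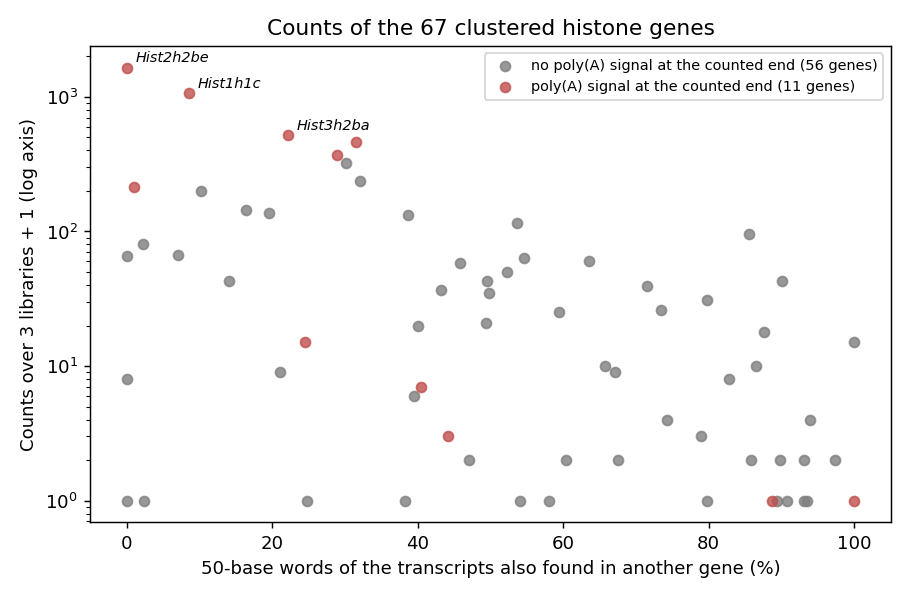
Counts summed over 3 libraries, plus 1 on a log axis, of the 67 clustered genes against the percentage of shared 50-base words. Words come from all annotated transcripts of a gene, not only its counted exons, and shared ones also occur in another gene. Red marks a poly(A) signal at the counted end (11 genes) and grey none found by the rule (56 genes). The 5 genes of highest count are red and lie below 50% shared words, and points at 1 on the vertical axis have 0 counts.

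Promoters also differed between the kinds of gene. In the 250 bases before RefSeq starts (GRCm38.p6), searched on both strands, CCAAT occurred in 49 of 60 promoters of 59 clustered genes (81.7%). It occurred in 8 of 14 replacement promoters (57.1%) and in 33.8% of all 32851 promoters. TATAAA occurred in 29 of 60 clustered promoters (48.3%), 1 of 14 replacement promoters (7.14%) and 12.4% of all. These are matches of letters, not sites of binding.

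No histone gene was called as varying among the 3 libraries more than genes of its abundance. The test covered histone genes averaging 10 counts or more, 37 in all, of which 0 passed edgeR's goodness of fit test at an adjusted p of 0.05, against 0.533% of all 13498 genes tested. The 37 comprised 28 clustered and 9 replacement genes, and the others fell under this filter on low counts. Without adjustment, 2 of the 37 were under 0.05, beside 554 of all 13498 genes tested. Neither count sets the histone genes apart from all genes tested. Hist1h1a, a linker histone gene, had 39, 11 and 15 counts, or 4.61, 1.03 and 2.93 TPM, and so was highest in replicate 2 (edgeR, adjusted p = 0.848). Hist1h1c was highest in replicate 4 (edgeR, adjusted p = 1.00). With a common dispersion in place of the trend, Hist1h1a passed (edgeR, adjusted p = 0.00588). The median log2 range over the 3 libraries was 0.77 for the clustered genes tested, 0.17 for the replacement genes and 0.19 for all genes tested. Of the 28 clustered genes tested 22 had mean counts of 10 to 100.

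Clustered genes tended to be highest in the same library. Replicate 4 was the highest for 21 of the 28 tested (75%) and the lowest for 2, after scaling by edgeR's TMM factors. Over all genes tested replicate 4 was highest for 35.5% and lowest for 35.9%. Among genes with mean counts of 10 to 100 it was highest for 36.3% of all and for 17 of 22 clustered ones (77.3%). In the Hist1 cluster on chromosome 13 it was 16 of 19, and for replacement genes 2 of 9. This tally was made after the values were seen, and no single gene passed the test above.

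Summed counts, as CPM, counts scaled to the library total, show where replicate 4 stood apart. Clustered genes in which the rule above found no poly(A) signal took 16.0, 14.5 and 22.6 CPM in replicates 2, 3 and 4. Those with the signal took 32.3, 30.5 and 33.2. That rule does not tell which of their RNAs carried a tail. The Hist1 cluster took 23.3, 21.1 and 32.6 CPM, and the other clusters together 24.9, 23.9 and 23.2. For the first of these pairs the ratio of replicate 4 to replicate 3 was 1.56 and 1.09. The 9 RNAs that lack a poly(A) tail, such as the 7SK RNA gene Rn7sk, took 3.94, 3.82 and 5.22 CPM. Their sum too was highest in replicate 4, with overlapping intervals for replicates 2 and 4. Rn7sk held 399 of their 563 counts. By TPM, Rn7sk, Rpph1, Rmrp and Rny3 were highest in replicate 4, while Terc, Rn7s1, Rn7s2 and Rny1 were not, and Rnu7 had 0 counts. The 16 S phase genes took 758, 758 and 750 CPM and the 18 replacement histone genes 802, 729 and 750. Replicate 4 was also the library with the fewest counts. Which of these moved the clustered genes was not tested.

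**Figure D4:**
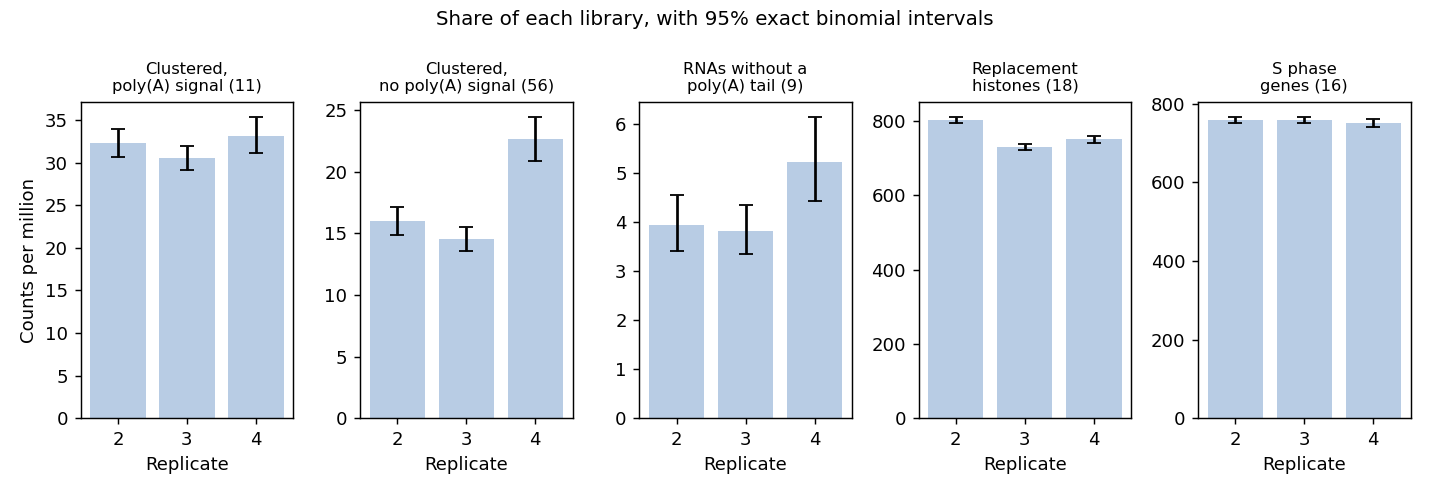
CPM in replicates 2, 3 and 4 (bars, with exact 95% binomial intervals for counting error) for clustered genes with and without a poly(A) signal, RNAs without a tail, replacement histone genes and S phase genes, with the number of genes in brackets. Each panel has its own axis from 0, and clustered genes without the signal stand at 22.6 in replicate 4 against 16.0 and 14.5.

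Genes that make, process and load histones were nearly all detected. Of all protein-coding genes 46.1% were, a share to set beside this and the protein-coding lists below. Of 25 genes for histone mRNA processing and decay 24 were detected, with a median of 37.1 TPM. By edgeR's test 0 varied among libraries, with 0 under 0.05 before adjustment. Since 0.533% of all genes tested were called, 0 in this list and in those below does not set them apart. The highest were Snrpb, a core protein of spliceosomal and U7 particles, at 387 ± 17.4 TPM, Srrt, which links the cap to 3′ end processing, at 262 ± 7.89 TPM, Upf1, a helicase of mRNA decay, at 228 ± 7.38 TPM and the endonuclease gene Cpsf3 at 169 ± 2.67 TPM. Slbp, whose protein binds the stem-loop, was at 19.8, 21.1 and 19.1 TPM. Npat, the activator of clustered genes, was at 22.2 ± 0.610 TPM and Casp8ap2, a protein of the same nuclear body, at 29.3 ± 1.67 TPM. The gene not detected was Zfp473, at 0.436 ± 0.0157 TPM, whose protein also joins in stem-loop processing. Rnu7, the RNA of the U7 particle that directs the cut, had 0 counts. It belongs to the list of 9 RNAs without a poly(A) tail, of which 4 were detected. How well such RNAs were captured was not tested, so its 0 counts do not show its absence.

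All 11 chaperones of histones made in S phase were detected, with a median of 29.2 TPM, and so were all 20 genes listed with the chaperones of replacement histones, with a median of 104 TPM. That list also holds Cenpa, which encodes the centromeric H3 variant itself and was at 21.5 ± 2.15 TPM. Which histones each listed protein loads was not examined here. The medians of the lists therefore do not compare loading between the kinds of histone. The first list was led by Rbbp7 at 151 ± 5.98 TPM and Tonsl at 95.8 ± 0.800 TPM, followed by Rbbp4 at 92.9 ± 2.17 TPM and the importin gene Ipo4 at 64.0 ± 2.43 TPM. Chaf1a, the large subunit of the replication-coupled assembly factor, was low, at 2.82, 1.36 and 1.14 TPM (edgeR, adjusted p = 0.728). The second list was led by Npm1 at 481 ± 13.2 TPM, Nap1l4 at 261 ± 4.61 TPM, Ssrp1 at 215 ± 2.32 TPM and the H3.3 chaperone gene Daxx at 175 ± 3.79 TPM. Hira, the other H3.3 chaperone gene, was at 16.7 ± 2.17 TPM. By edgeR's test, 0 genes of either list passed an adjusted p of 0.05, and 1 and 0 were under 0.05 without adjustment.

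Genes of the cell cycle stood at both ends. In the S phase list 13 of 16 were detected, with a median of 46.7 TPM and with Pcna, the replication clamp, at 124 ± 3.59 TPM, Mcm4 at 98.2 ± 1.99 TPM, Cdt1 at 71.1 ± 1.60 TPM and Mcm6 at 65.0 ± 3.21 TPM. In the list of G2 and mitosis 7 of 11 were, with a median of 2.01 TPM, led by Cdc20 at 9.36 ± 0.443 TPM, Plk1 at 4.07 ± 1.14 TPM, Top2a at 3.76 ± 0.513 TPM and Aurka at 3.00 ± 0.339 TPM. The proliferation marker Mki67 was at 2.01 ± 0.284 TPM. Means over the whole S phase list ran from 0.325 to 124 TPM, a range that holds that of the detected clustered histone genes, 1.54 to 22.6 TPM. Of the 9 RNAs without a tail 4 were detected, Rn7sk at 32.7 ± 5.10 TPM, Rpph1 at 7.85 ± 3.83 TPM, Terc at 2.72 ± 0.482 TPM and Rmrp at 1.82 ± 0.859 TPM. Of the genes tested in these 3 lists, 0 passed edgeR's test and 0 were under 0.05 without adjustment.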

How the data were processed

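The authors deposited raw counts of read pairs per gene for 3 libraries. Per the file headers, pairs were counted with featureCounts 1.4.6-p4 over exons of GENCODE vM13 (mm10), both ends aligned, reverse strand; the aligner's settings were not given in the sources used here. Exon length stands beside the counts, from which TPM were computed here. Symbols matched 50376 of 50600 genes. Transcripts and biotypes came from GENCODE M21 and promoters from RefSeq.

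Detection was 1 TPM or more in every library. Variation was tested with edgeR 4.0.16 (R 4.3.3): goodness of fit of an intercept-only model, TMM scaling, trended dispersion, mean count of 10 or more, Benjamini-Hochberg adjustment at 0.05. It was tested on simulated data. The common coefficient of variation was 9.24%. Contrasts used log2(TPM + 0.1) with exact sign-flip permutation. Intervals are Clopper-Pearson (95%), and the floor was 3 counts; both cover counting error only. Counts differed between each pair of libraries by more than sampling noise (chi-square per degree of freedom 9.10 to 17.2), so none was merged.

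Members, lists and tests were chosen with earlier results of these data known. Genes named were replacement genes at a mean of 1 TPM or more, the 10 highest clustered genes, Hist1h1a to Hist1h1e, any gene called, the 4 highest of each list, and Slbp, Npat, Casp8ap2, Pcna and Mki67. Others, such as Hist3h2a, H1fx, Chaf1a and Hira, were named after their values were seen or for a contrast. Alternatives were other scalings, filters, dispersions, pseudocounts, detection thresholds, shares and each replicate left out. The names Mizf and Yl1 of the lists matched none of the symbols used here. Python 3.11.15 was used.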

Additional observations from a re-analysis of the deposited data

How the results depend on the processing

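The call of 0 histone genes varying held under other scalings, other count filters and each replicate left out (edgeR, 0 to 0 called), and under a common dispersion it became 1, Hist1h1a. All genes varying numbered 72, 312 under that dispersion and 35 to 46 with a replicate left out. The clustered share of counts moved from 6.14% to 18.3% by TPM, 4.75% without Hist2h2be and 2.88% without clustered genes of 1000 bases or more. At 2 TPM, 15 clustered genes were detected in place of 24. All 8 contrasts kept their sign under every alternative run, and none can pass 0.05 with 3 libraries. Not dividing by length moved H2afj minus H2afx from 0.08 to 0.49 and H2afz minus H2afx from 0.24 to 0.59. A pseudocount of 1 TPM moved H1f0 minus H1fx from 7.19 to 3.95 and H1fx minus Hist1h1c from -7.55 to -4.30. It also moved H2afy minus H2afy2 from 10.17 to 7.05. Leaving out genes under 200 bases raised TPM by a factor of 1.03 to 1.04. Replicate 4 was highest for 20 of 28 clustered genes by CPM and by TPM, alternatives added after seeing the data. Most clustered genes had few counts, which limits what differences among libraries could be seen. No paired analysis was possible because the libraries form a single group, so that no groups could be paired; contrasts between genes were taken within each library.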
